A study of Mus musculus with 18 samples.

Results

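The chemokine family on these arrays was taken as every gene whose single symbol in the platform annotation begins with Ccl, Cxcl, Cx3cl, Xcl, Ccr, Cxcr, Cx3cr or Ackr followed by a number. This rule found 52 of the 18193 genes measured, 33 ligands and 19 receptors, each read from its brightest single-symbol probe set by the average of the 18 arrays. The arrays came from sorted mouse dermal cells, 3 arrays in each of 6 groups, and all cells were untreated. ENF and EPF cells were taken from dorsal dermis of En1Cre; R26mTmG mice labelled postnatal day 56, ENF being RFP positive and GFP negative and EPF the reverse. Dorsal and Ventral cells were GFP positive and RFP negative cells of En1Cre; R26mTmG mice at postnatal day 30, from dorsal and ventral dermis. Cranial and Oral cells were GFP positive and RFP negative cells of Wnt1Cre; R26mTmG mice at postnatal day 30, from cranial and oral dermis. The protocol instead states 30 days for cells from the back, so the age of ENF and EPF is not settled. Every sample carried the R26mTmG reporter, in which Cre turns a red membrane label into a green one in a cell and its descendants, and the sort removed cells positive for EpCAM, CD31, CD45, Tie2, the marker spelled Tie119 or the dead-cell dye DAPI. En1Cre marks cells that expressed the homeobox gene Engrailed-1 and Wnt1Cre marks cells that expressed Wnt1, which include the neural crest, so GFP records an ancestor's expression and not a present cell type. No group of mice without Cre was analysed here.

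Chemokines are small secreted proteins that steer the movement of cells through G protein-coupled receptors. Inflammatory chemokines such as Cxcl1 and Ccl2 are induced within hours of injury or cytokine signals and recruit neutrophils and monocytes, whereas homeostatic chemokines such as Cxcl12 and Cxcl13 position cells in resting tissue. Atypical receptors of the Ackr group bind chemokines without G protein signalling and take them up or carry them. Dermal fibroblasts are a known source of several of these ligands, and most signalling receptors are known from leukocytes.

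The promoters of 3 ligands are shown. All 3 Oral arrays lay below the other site arrays for Cxcl1 and Cxcl2 and above them for Cx3cl1. Cxcl5, Ccl2, Ccl8 and Cxcl3 also had all 3 Oral arrays lowest, but their windows are not printed. The 250 bases before the start of each gene were taken from RefSeq on GRCm38.p6, all on the plus strand, at chr5:90890995-90891244 for Cxcl1, chr5:90903649-90903898 for Cxcl2 and chr8:94771930-94772179 for Cx3cl1. Capitals mark matches to the kappa-B consensus in Cxcl1 and Cxcl2 and to TATAAA in Cx3cl1.
Cxcl1: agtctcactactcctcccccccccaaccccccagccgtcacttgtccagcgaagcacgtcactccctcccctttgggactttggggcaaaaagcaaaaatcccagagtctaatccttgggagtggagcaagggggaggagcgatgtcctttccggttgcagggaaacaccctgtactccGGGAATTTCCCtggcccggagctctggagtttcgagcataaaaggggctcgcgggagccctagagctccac
Cxcl2: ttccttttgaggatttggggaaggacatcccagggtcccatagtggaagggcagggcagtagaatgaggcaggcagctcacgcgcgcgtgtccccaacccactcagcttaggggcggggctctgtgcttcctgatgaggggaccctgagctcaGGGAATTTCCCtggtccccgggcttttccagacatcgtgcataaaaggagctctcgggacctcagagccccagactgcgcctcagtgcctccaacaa
Cx3cl1: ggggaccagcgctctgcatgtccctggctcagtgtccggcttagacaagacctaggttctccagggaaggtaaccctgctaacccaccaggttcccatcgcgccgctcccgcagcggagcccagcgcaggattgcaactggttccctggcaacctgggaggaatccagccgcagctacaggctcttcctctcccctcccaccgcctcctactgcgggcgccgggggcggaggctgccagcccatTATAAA
The same kappa-B run, GGGAATTTCCC, lay 71 to 61 bases before the start of Cxcl1 and 97 to 87 bases before that of Cxcl2, where matches on both strands overlapped. It also lay 73 to 63 bases before the start of Cxcl3, and the Ccl8 window held no kappa-B match. A kappa-B match, searched on both strands, was found in 7.25% of 32851 windows of this length. Of the 52 members 39 had a window, and 10 of these held a match, in Ackr2, Ccl1, Ccl20, Ccl9, Ccr1, Ccr3, Cxcl1, Cxcl10, Cxcl2 and Cxcl3. TATAAA was found in 12.4% of windows and in 11 of the 39, TGANTCA in 6.75% and in 4, and the core of the interferon response element in 2.98% and in 2, Cxcl10 and Cxcl14. A match is a description of the letters and not a measured binding site. Cxcl5, Ccl2, Ccl7 and Ccl11 were among the members without a window, so the printed windows do not cover every member lowest in Oral. In the RefSeq order of the members alone, Cxcl5, Cxcl3, Cxcl15, Cxcl1 and Cxcl2 followed one another. So did Cxcl9, Cxcl10 and Cxcl11, and Ccl2, Ccl7, Ccl11, Ccl12 and Ccl8. Genes outside the rule were not looked up between them.

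Values are log2 expression after RMA, and a group whose mean did not exceed the lower quartile of its own arrays (3.95 to 4.07 by group) is called near background. The 12 fibroblast markers were above the median gene in all 6 groups. Of 27 leukocyte markers 3 to 5 were, with a mean level per array of 4.64 to 5.10 over all arrays, and Ptprc, the gene of CD45, was at 3.82 to 4.21 by group. Keratinocyte markers were at 7.28 to 9.30 in ENF, 5.08 to 7.72 in EPF and 4.78 to 5.16 in the site arrays, and mural cell markers at 8.88 to 9.04 in EPF and 7.14 to 7.95 in the other arrays. Endothelial markers were at 4.88 to 6.11, with Pecam1, the gene of CD31, at 3.77 to 4.09, while Tek, the gene of Tie2, was at 10.46 in ENF and 10.20 in EPF and at 3.75 to 4.27 in the site groups. Xist was low in ENF 1 and EPF 2 (4.98 and 5.20) against 10.48 to 12.13 in the other arrays. Arrays of a group carry replicate numbers but are not said to come from separate animals, so p-values measure the spread between these samples, which may be technical. In bulk samples, fewer cells of a type and less RNA per cell cannot be told apart.

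Sorted by brightness, 16 members were well expressed, meaning a mean over the 18 arrays at or above the median gene (6.40), 18 were near background at or below the lower quartile of genes (4.60), and 18 lay between. Ligands and atypical receptors made up the whole of the well-expressed class. It held 13 of 33 ligands (Cxcl1, Cxcl12, Ccl2, Ccl7, Cxcl5, Ccl8, Cxcl14, Cxcl16, Cxcl10, Ccl11, Cxcl2, Ccl24 and Cxcl13), 3 of 4 atypical receptors (Ackr1, Ackr2 and Ackr3) and 0 of 15 signalling receptors. This class rests on the mean over all groups and not on each of them. Ackr1, Ackr2, Ccl11 and Cxcl13 had group means above the line in ENF and EPF only, and at 5.64 to 5.85, 4.74 to 4.97, 4.30 to 6.19 and 4.55 to 4.97 in the sites. Cxcl14 was above it in ENF, EPF and Cranial, Cxcl2 not in Cranial or Oral, Cxcl10 and Ccl8 not in Oral, and Cxcl5 not in ENF or EPF. The members next to the line were Ackr2 at 6.43 and Ccr2 at 6.39. Of the signalling receptors, Ccr2, Ccr6, Ccr10 and Cxcr3 were intermediate, and Ccr1, Ccr3, Ccr4, Ccr7, Ccr8, Ccr9, Cxcr2, Cxcr4, Cxcr5, Cxcr6 and Cx3cr1 were near background. Cxcr4 and Cxcr2, the signalling receptors of Cxcl12 and of Cxcl1, Cxcl2 and Cxcl5, were both in the last class. The intermediate ligands were Ccl1, Ccl4, Ccl5, Ccl9, Ccl17, Ccl20, Ccl22, Ccl25, Ccl27a, Ccl28, Cx3cl1, Cxcl9 and Cxcl17, and Ackr4, which scavenges homeostatic chemokines, was intermediate too. The ligands near background were Ccl3, Ccl6, Ccl12, Cxcl3, Cxcl11, Cxcl15 and Xcl1. This class is set by gene and not by group. Its members Ccl6, Cxcl15 and Cx3cr1 had no group near background, and Cxcr4 was above that line in ENF (4.24). Probe sets differ in brightness, so the order of genes by level is not read further.

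**Figure D1:**
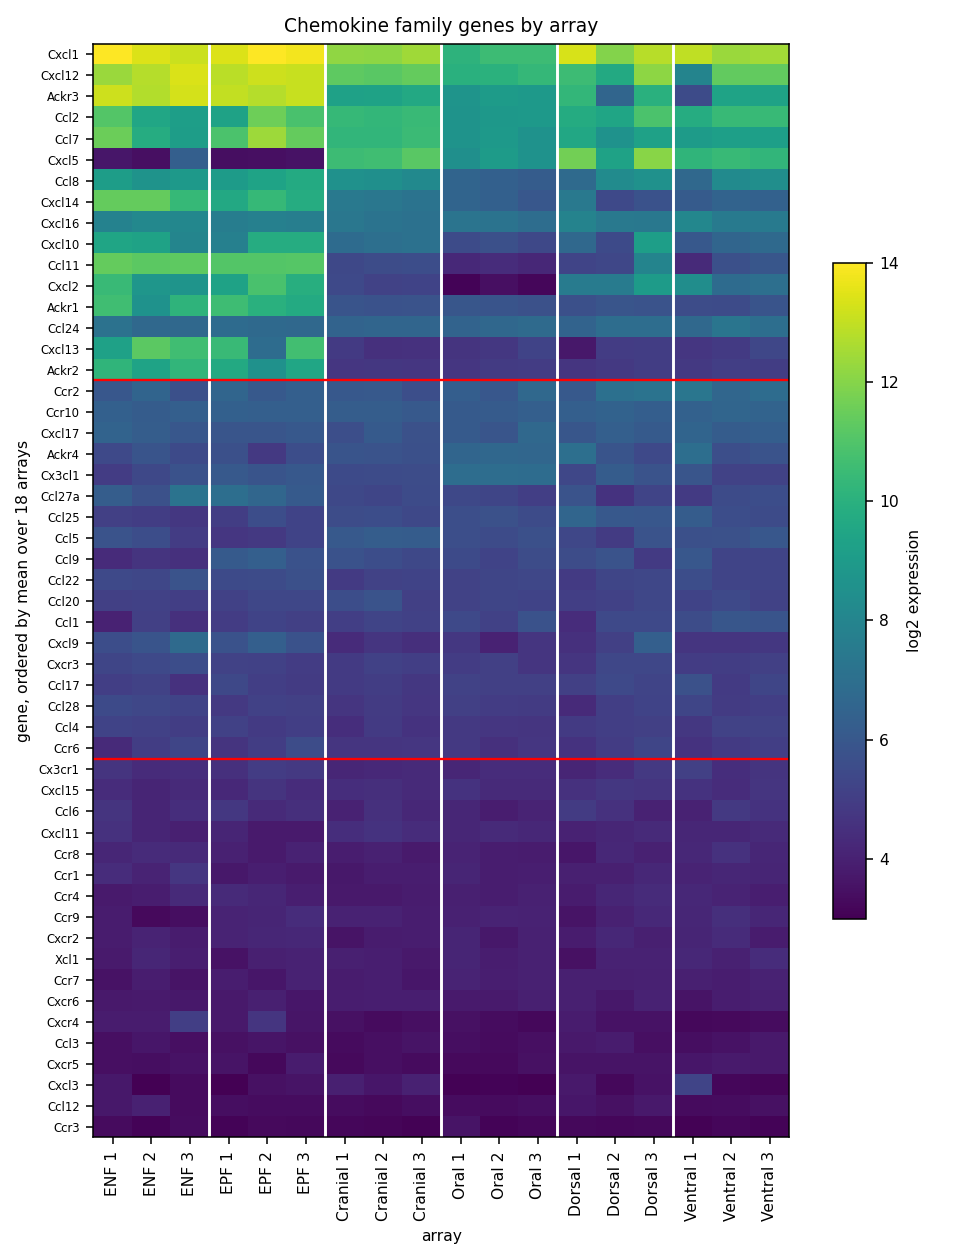
Colour shows log2 expression of the 52 members (rows, ordered by mean over 18 arrays) in each array (columns), with red lines between the well-expressed, intermediate and near-background classes. Ackr1, Ackr2, Ccl11 and Cxcl13 step down from the 6 EPF and ENF arrays to the 12 site arrays, and Cxcl5 steps up.

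Among the 4 sites, Cxcl1 and Ccl2 were lower in Oral than in each of the others, and Cxcl2 was lower in Oral than in Dorsal and Ventral. Oral and Cranial cells came from Wnt1Cre mice, and Dorsal and Ventral cells from En1Cre mice. In every comparison between these pairs, site, Cre line and lineage cannot be told apart. Cx3cl1, or fractalkine, was higher in Oral than in each of the others by the probe set used, but not by the mean over its 4 probe sets. All 3 Oral arrays lay below the 9 other site arrays in 6 of the 52 members, Cxcl1, Cxcl2, Cxcl5, Ccl2, Ccl8 and near-background Cxcl3, and the last 2 had no called site difference. Over all genes 2.29% showed this order. Cx3cl1 was the 1 member with all 3 Oral arrays above the others, an order shown by 3.41% of all genes.

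Cxcl1, a neutrophil attractant acting through Cxcr2, was at 12.16, 12.15 and 12.44 in Cranial, 10.13, 10.55 and 10.55 in Oral, 13.35, 11.97 and 12.80 in Dorsal, and 12.94, 12.33 and 12.47 in Ventral. The Oral arrays were the lowest 3 of the 12, with no overlap. The log2 difference of Oral was -1.84 ± 0.30 (SE) against Cranial (3.58-fold, limma adjusted p = 0.0119), -2.30 ± 0.30 against Dorsal (adjusted p = 5.45e-04) and -2.17 ± 0.30 against Ventral (adjusted p = 8.35e-04). These 3 comparisons share the Oral arrays. The first call was lost without Oral 1 or without Cranial 1, 2 or 3 (adjusted p 0.0519 to 0.0773), while the others held in all 14 alternatives run. With array weights, which count less reliable arrays for less, the difference from Dorsal was -1.59. All 3 probe sets of Cxcl1 had their lowest group mean in Oral, at 10.41, 9.11 and 8.90.

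Cxcl2, the close paralog of Cxcl1 and also a Cxcr2 ligand, was at 5.43, 5.17 and 5.21 in Cranial, 3.10, 3.43 and 3.17 in Oral, 7.58, 7.58 and 9.04 in Dorsal, and 8.37, 6.86 and 7.03 in Ventral. Oral was near background and Cranial lay between it and the trunk sites, with no array of the 4 sites crossing from Oral to Cranial or from Cranial to Dorsal or Ventral. Against Dorsal and Ventral, Cxcl2 in Oral was at least 17.0-fold and at least 10.8-fold lower, the bright group's mean being set against the Oral background line of 3.98, with measured means of 3.24 ± 0.18, 8.07 ± 0.85 and 7.42 ± 0.83 (SD, n = 3; limma adjusted p = 5.49e-05 and 1.39e-04). Cranial was lower than Dorsal by 6.94-fold (-2.79 ± 0.43, log2 difference and SE, adjusted p = 0.00170) and lower than Ventral (-2.15 ± 0.43, adjusted p = 0.00690). Against Cranial, at 5.27 ± 0.14, Oral was at least 2.45-fold lower, which missed the threshold (adjusted p = 0.0531).

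Cxcl5, a further neutrophil attractant of the same receptor, was at 10.56, 10.62 and 11.19 in Cranial, 8.48, 9.06 and 8.63 in Oral, 11.65, 9.32 and 12.05 in Dorsal, and 10.20, 10.39 and 10.25 in Ventral. Dorsal 2 was close to the Oral arrays and the other Dorsal arrays were the brightest of the 4 sites. The fall in Oral against Dorsal was -2.29 ± 0.55 (SE, adjusted p = 0.0163). The call was lost without Oral 1 or 3 (adjusted p 0.0554 to 0.0596), with array weights (-0.66, adjusted p = 0.0958) and with only the 6 arrays compared in the fit (adjusted p = 0.117). Without Dorsal 2 the difference was -3.13 and remained called. Against Cranial and Ventral the differences were -2.07 and -1.56, not called (adjusted p = 0.147 and 0.0855).

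Ccl2, the monocyte attractant that signals through Ccr2, was at 10.38, 10.30 and 10.45 in Cranial, 8.64, 8.87 and 8.91 in Oral, 9.76, 9.46 and 10.88 in Dorsal, and 9.80, 10.43 and 10.41 in Ventral. The Oral arrays were again the lowest 3. The log2 difference of Oral was -1.57 ± 0.31 (SE) against Cranial (limma adjusted p = 0.0374), -1.23 ± 0.31 against Dorsal (0.0199) and -1.41 ± 0.31 against Ventral (0.0114). The Ventral comparison held in all 14 alternatives. With array weights the difference from Dorsal was -0.72, and without Dorsal 3 it was -0.80, both called. The first was lost without Oral 1, 2 or 3 or without Cranial 1, 2 or 3 (adjusted p 0.124 to 0.185) and the second without Oral 1, 2 or 3 (adjusted p 0.0505 to 0.0709) or with only the 6 arrays compared in the fit (adjusted p = 0.112).

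Ccl7, a neighbouring monocyte attractant, was at 10.25, 10.25 and 10.51 in Cranial, 8.66, 8.91 and 8.62 in Oral, 9.61, 8.60 and 9.31 in Dorsal, and 9.05, 9.21 and 9.20 in Ventral. Here Cranial stood alone: its 3 arrays were above the other 9, and Oral overlapped with Dorsal. Oral fell by 1.61 against Cranial (SE 0.21, limma adjusted p = 0.00310), a call held in all 14 alternatives. Cranial was higher than Dorsal by 1.17 ± 0.21 (adjusted p = 0.00440) and than Ventral by 1.18 ± 0.21 (0.00410). The Ventral call held in all 14 alternatives, and the Dorsal one was lost with only the 6 arrays compared in the fit (adjusted p = 0.0567).

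Ccl8, another ligand of this cluster, was at 8.56, 8.47 and 8.23 in Cranial, 6.53, 6.37 and 6.20 in Oral, 6.81, 8.31 and 8.58 in Dorsal, and 6.70, 8.24 and 8.43 in Ventral. Dorsal 1 and Ventral 1 were near the Oral arrays and the other arrays of those groups near Cranial. None of its site differences was called, with Oral against Cranial at -2.05 (adjusted p = 0.0871), against Dorsal at -1.53 (0.0530) and against Ventral at -1.43 (0.0750). Ccl11, the eosinophil attractant eotaxin, was at 5.40, 5.57 and 5.61 in Cranial, 4.27, 4.40 and 4.22 in Oral, 5.23, 5.36 and 7.98 in Dorsal, and 4.32, 5.69 and 5.94 in Ventral. Dorsal 3 was the brightest site array, and no site difference was called. Ccl24, a second eosinophil attractant, was at 6.51, 6.59 and 6.57 in Cranial, 6.50, 6.67 and 6.80 in Oral, 6.48, 6.93 and 6.91 in Dorsal, and 6.74, 7.26 and 6.95 in Ventral, with overlapping groups and no call.

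Cx3cl1, or fractalkine, a membrane-bound ligand of Cx3cr1 that can be shed, was at 5.47, 5.53 and 5.55 in Cranial, 6.95, 6.93 and 6.89 in Oral, 5.34, 6.20 and 5.81 in Dorsal, and 5.91, 5.19 and 5.19 in Ventral. The Oral arrays were the brightest 3 of the 12, and the intermediate class holds this gene. Cx3cl1 rose in Oral against Cranial by 1.41 ± 0.22 (SE, limma adjusted p = 0.0107), against Dorsal by 1.14 ± 0.22 (0.00610) and against Ventral by 1.49 ± 0.22 (0.00150). Leaving out Oral 1 or 2 or Cranial 1, 2 or 3 ended the first call (adjusted p 0.0543 to 0.0645). The 3 other probe sets of Cx3cl1 were at 5.44, 4.24 and 4.47 in Oral, and the mean over its 4 probe sets gave 0.48, 0.27 and 0.40 for the same 3 differences, none called (adjusted p = 0.107, 0.166 and 0.0508).

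Cxcl16, a membrane-bound ligand of Cxcr6, was at 7.36, 7.20 and 7.12 in Cranial, 7.22, 7.17 and 6.92 in Oral, 7.92, 7.45 and 7.42 in Dorsal, and 8.11, 7.52 and 7.55 in Ventral. Ventral arrays were above all Oral arrays, and the fall of Oral against Ventral was -0.62 ± 0.18 (SE, adjusted p = 0.0446), a call lost without Oral 1, 2 or 3 or without Ventral 1, 2 or 3 (adjusted p 0.0553 to 0.145). It was also lost by the mean over probe sets (adjusted p = 0.0799) and with a robust, intensity-dependent prior (adjusted p = 0.0621). Cxcl12, the homeostatic ligand of Cxcr4, was at 11.25, 11.17 and 11.40 in Cranial, 9.96, 10.02 and 10.31 in Oral, 10.54, 9.70 and 12.11 in Dorsal, and 7.95, 11.34 and 11.35 in Ventral. Ventral 1 was the lowest array and Dorsal 3 the highest, and no site difference was called. Cxcl10, an interferon-inducible ligand of Cxcr3, was at 6.86, 7.01 and 7.11 in Cranial, 5.49, 5.66 and 5.37 in Oral, 6.71, 5.47 and 9.16 in Dorsal, and 6.03, 6.59 and 6.78 in Ventral. Dorsal 3 was above every other site array, and no site difference was called. Cxcl14, a fibroblast and epithelial chemokine, was at 7.44, 7.37 and 7.17 in Cranial, 6.54, 6.39 and 6.0 in Oral, 7.45, 5.41 and 5.77 in Dorsal, and 6.16, 6.49 and 6.40 in Ventral. The Cranial arrays were above the Oral and Ventral ones, Dorsal 1 overlapped with them, and no site difference was called.

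Cxcl13, the B cell attractant acting through Cxcr5, was at 4.86, 4.54 and 4.58 in Cranial, 4.67, 4.78 and 5.20 in Oral, 3.69, 4.96 and 5.01 in Dorsal, and 4.73, 4.86 and 5.32 in Ventral, with overlapping groups and no call. Among the atypical receptors, Ackr3, which takes up Cxcl12, was at 9.29, 9.32 and 9.65 in Cranial, 8.69, 9.05 and 8.96 in Oral, 10.28, 6.58 and 9.99 in Dorsal, and 5.53, 9.38 and 9.33 in Ventral. Dorsal 2 and Ventral 1 were well below the other arrays of their groups. Ackr1, the Duffy receptor of inflammatory chemokines, was at 5.86, 5.79 and 5.81 in Cranial, 5.95, 5.86 and 5.74 in Oral, 5.70, 5.90 and 5.83 in Dorsal, and 5.57, 5.51 and 5.84 in Ventral. Ackr2, a scavenger of inflammatory Ccl ligands, was at 4.72, 4.77 and 4.74 in Cranial, 4.73, 4.90 and 4.94 in Oral, 4.70, 4.84 and 5.0 in Dorsal, and 4.84, 5.06 and 5.01 in Ventral. Both were even over the 12 site arrays, within 5.51 to 5.95 and 4.70 to 5.06, and none of the 3 atypical receptors was called between sites.

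Few weakly expressed members were called between sites. Ccl5, a T cell and monocyte attractant, was at 6.09, 6.23 and 6.18 in Cranial against 5.35, 4.92 and 5.80 in Dorsal, and the groups did not overlap. It rose in Cranial by 0.81 ± 0.19 (SE, adjusted p = 0.0146), a call lost without Cranial 2 or 3 (adjusted p 0.0511 to 0.0514) or with only the 6 arrays compared in the fit (adjusted p = 0.0918). Ccl25, the thymic and gut ligand of Ccr9, was at 5.55, 5.59 and 5.40 in Cranial against 6.60, 6.02 and 5.98 in Dorsal, without overlap, and fell in Cranial by 0.69 (SE 0.20, adjusted p = 0.0397). That call was lost without Cranial 1, 2 or 3 or without Dorsal 1 (adjusted p 0.0603 to 0.127) or with only the 6 arrays compared in the fit (adjusted p = 0.0916), and the mean over probe sets gave -0.40. Ccr2, the receptor of Ccl2, was at 6.03, 6.06 and 5.66 in Cranial against 7.30, 6.62 and 6.87 in Ventral, without overlap, and fell in Cranial by 1.01 (SE 0.30, adjusted p = 0.0387). It was lost without Cranial 1, 2 or 3 or without Ventral 1, 2 or 3 (adjusted p 0.0514 to 0.140). The 3 other Ccr2 probe sets were at 3.25 to 4.15 by group, and the mean over all 4 gave -0.36 (adjusted p = 0.0847). Cxcr5, the receptor of Cxcl13, was at 3.26, 3.29 and 3.49 in Oral, 3.29, 3.46 and 3.32 in Cranial and 3.68, 3.79 and 3.76 in Ventral. The Oral and Cranial arrays were below the Ventral ones and limma called both orders (adjusted p = 0.0198 and 0.0205). All 3 groups were near background, so no size of difference is given. The Oral call was lost without Oral 1 or 2 or without Ventral 2 or 3 (adjusted p 0.0638 to 0.0818). The Cranial call was lost without Cranial 1 or 3 or without Ventral 2 or 3 (adjusted p 0.0611 to 0.0826) or after quantile normalization (adjusted p = 0.0551).

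Counted over the 52 members, 1 rose and 3 fell in Oral against Cranial (7.69% called, against 1.14% of all genes, 0.407% higher and 0.731% lower), with a median of -2.26e-04 over all 52 and 0.04 over all genes. In Oral against Dorsal 1 rose and 4 fell (9.62% against 16.8% of all genes, 10.5% higher and 6.30% lower), in Oral against Ventral 1 and 5 (11.5% against 14.6% of all genes, 10.3% higher and 4.31% lower), in Cranial against Dorsal 2 and 2 (7.69% against 18.7% of all genes, 11.2% higher and 7.45% lower) and in Cranial against Ventral 1 and 3 (7.69% against 17.9% of all genes, 11.7% higher and 6.20% lower). In these 4 comparisons the members' share was below that of all genes. For the 16 well-expressed members it was 25% in Oral against Dorsal and Ventral and 12.5% in Cranial against each. For the 18 near background it was 0% against Dorsal and 5.56% against Ventral. These classes rest on the mean over all 18 arrays, and Ackr1, Ackr2, Ccl11 and Cxcl13 are well expressed only through ENF and EPF. No share was counted for all genes of the same brightness, so the class shares are not read further. Ventral against Dorsal gave 0 calls in limma (against 0.0275% of all genes, 0.00550% higher and 0.0220% lower), with 3 members at an unadjusted p under 0.05. Centring each array on its median moved the median of all genes, from -0.06 to -0.27 in Cranial against Dorsal for example, and turned these splits into 2 higher and 16 lower there, 1 and 17 in Oral against Dorsal, 1 and 11 in Oral against Ventral and 1 and 18 in Cranial against Ventral. Quantile normalization gave 3 higher and 5 lower in Cranial against Dorsal. The directions of all genes were not counted under these settings, so these splits are not read as particular to the members. In Oral against Cranial, fitting only the 6 arrays compared gave 2 higher and 13 lower, with 1795 of all 18193 genes called. Leukocyte markers gave 0 of 27 calls in Oral against Cranial (limma, 0 at an unadjusted p under 0.05), and 2 of 11 mural markers fell in Oral there, Abcc9 at -1.96 and Kcnj8 at -1.51. In Oral against Dorsal 0 rose and 3 fell of 12 fibroblast markers, 1 and 3 of 13 keratinocyte, 0 and 1 of 14 endothelial, 0 and 1 of 27 leukocyte and 1 and 0 of 11 mural markers. In Oral against Ventral the counts were 1 and 1, 1 and 1, 0 and 1, 0 and 1, and 1 and 1, in the same order. The part of these cells in the site differences was not tested.

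**Figure D2:**
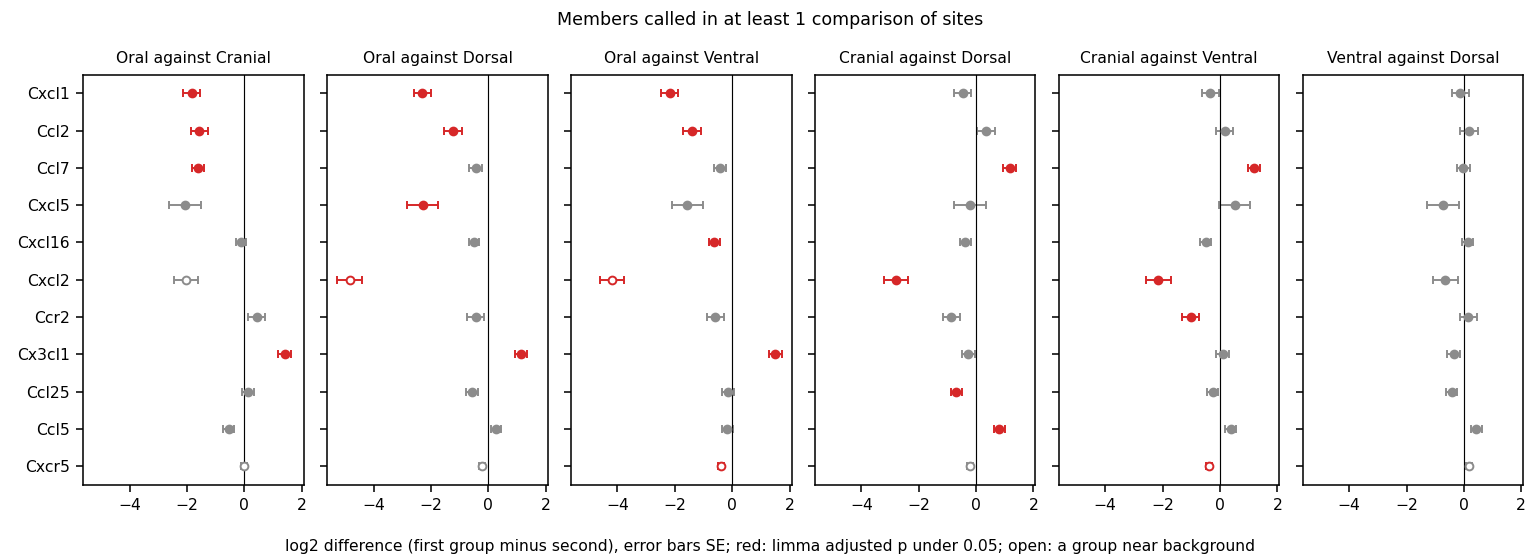
Points show the log2 difference (first group minus second) with its SE for each member called in at least 1 site comparison, red where limma called it and open where either group was near background, so that the point is no fold. Cxcl1, Ccl2 and Cx3cl1 are red in the 3 Oral comparisons, the Cxcl2 points of Oral are open, and no point is red in Ventral against Dorsal.

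Between EPF and ENF, the Engrailed-1 lineage and the other dermal cells of the back, limma called 1 member. Ccl9, a macrophage inflammatory protein of the intermediate class, was at 4.37, 4.66 and 4.52 in ENF, and 6.12, 6.33 and 5.79 in EPF. The groups did not overlap, and Ccl9 rose in EPF by 1.56 ± 0.19 (SE, 2.94-fold, limma adjusted p = 0.0262). This was 1 of 52 members (1.92%, against 0.308% of all genes, 0.275% higher and 0.0330% lower), and 5 members had an unadjusted p under 0.05. The call was lost without EPF 1, 2 or 3 or without ENF 1 (adjusted p 0.0527 to 0.154) and without both arrays low in Xist (1.36, adjusted p = 0.219). A second Ccl9 probe set was at 3.31 in ENF and 3.52 in EPF, both near background, and the mean over both gave 0.89, not called (adjusted p = 0.0549). Csf1r, the macrophage growth factor receptor on the leukocyte list, was at 7.19 in ENF and 9.88 in EPF and was not called (2.69, adjusted p = 0.148). Of the 27 leukocyte markers 0 were called (limma, 2 at an unadjusted p under 0.05, median -0.02), and of 11 mural markers 3 rose in EPF. The keratinocyte list had 1 of 13 lower in EPF and a median of -3.03, and the fibroblast and endothelial lists had 0 calls of 12 and 14 (limma, 2 and 0 at an unadjusted p under 0.05). The part of these cells in the result was not tested.

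None of the well-expressed members was called between EPF and ENF by limma, with 1 of 16 at an unadjusted p under 0.05. Cxcl1 was at 14.05, 13.43 and 13.12 in ENF, and 13.44, 14.12 and 13.83 in EPF, and Ccl2 at 11.07, 9.50 and 9.17 in ENF, and 9.34, 11.59 and 10.84 in EPF. Ccl7 was at 11.53, 9.81 and 9.13 in ENF, and 10.87, 12.39 and 11.39 in EPF, with ENF 1 overlapping EPF. Cxcl2 was at 10.44, 8.80 and 8.71 in ENF, and 9.33, 10.86 and 9.92 in EPF. In these 4 inflammatory ligands ENF 1 was the brightest ENF array and EPF 2 the brightest EPF array, and these are the arrays low in Xist. Cxcl10 was at 9.47, 9.33 and 8.0 in ENF, and 7.78, 9.81 and 9.81 in EPF, with ENF 3 and EPF 1 lowest, and Ccl8 at 9.12, 8.63 and 8.91 in ENF, and 9.03, 9.38 and 9.74 in EPF. Cxcl13 was at 9.29, 11.23 and 10.64 in ENF, and 10.47, 6.89 and 10.69 in EPF, where EPF 2 was far below the other 5 arrays. Cxcl14 was at 11.40, 11.42 and 10.39 in ENF, and 9.63, 10.38 and 9.82 in EPF. It was lower in every EPF array than in every ENF array but was not called (-1.13, adjusted p = 0.262), and its second probe set ran the other way, at 9.84 in ENF and 10.61 in EPF. Ccl11 was at 11.41, 11.21 and 11.28 in ENF, and 11.05, 11.04 and 11.10 in EPF, and Cxcl12 at 12.35, 12.80 and 13.37 in ENF, and 12.84, 13.15 and 13.06 in EPF. Ccl11 was a little lower in every EPF array without being called, and Cxcl12 overlapped. Cxcl16 was at 7.87, 8.11 and 8.10 in ENF, and 7.67, 7.78 and 7.71 in EPF, and Ccl24 at 7.13, 6.71 and 6.71 in ENF, and 6.85, 6.78 and 6.73 in EPF. Cxcl16 was lower in every EPF array, Ccl24 overlapped, and neither was called. Cxcl5 was at 3.66, 3.46 and 6.31 in ENF, and 3.42, 3.44 and 3.54 in EPF, near background in all but ENF 3. Ackr1 was at 10.62, 8.60 and 10.15 in ENF, and 10.57, 9.96 and 9.71 in EPF. Ackr2 was at 10.18, 9.39 and 10.23 in ENF, and 9.68, 8.57 and 9.51 in EPF. The third, Ackr3, was at 13.17, 12.74 and 13.28 in ENF, and 12.99, 12.78 and 13.06 in EPF, so all 3 atypical receptors overlapped between the groups.

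**Figure D3:**
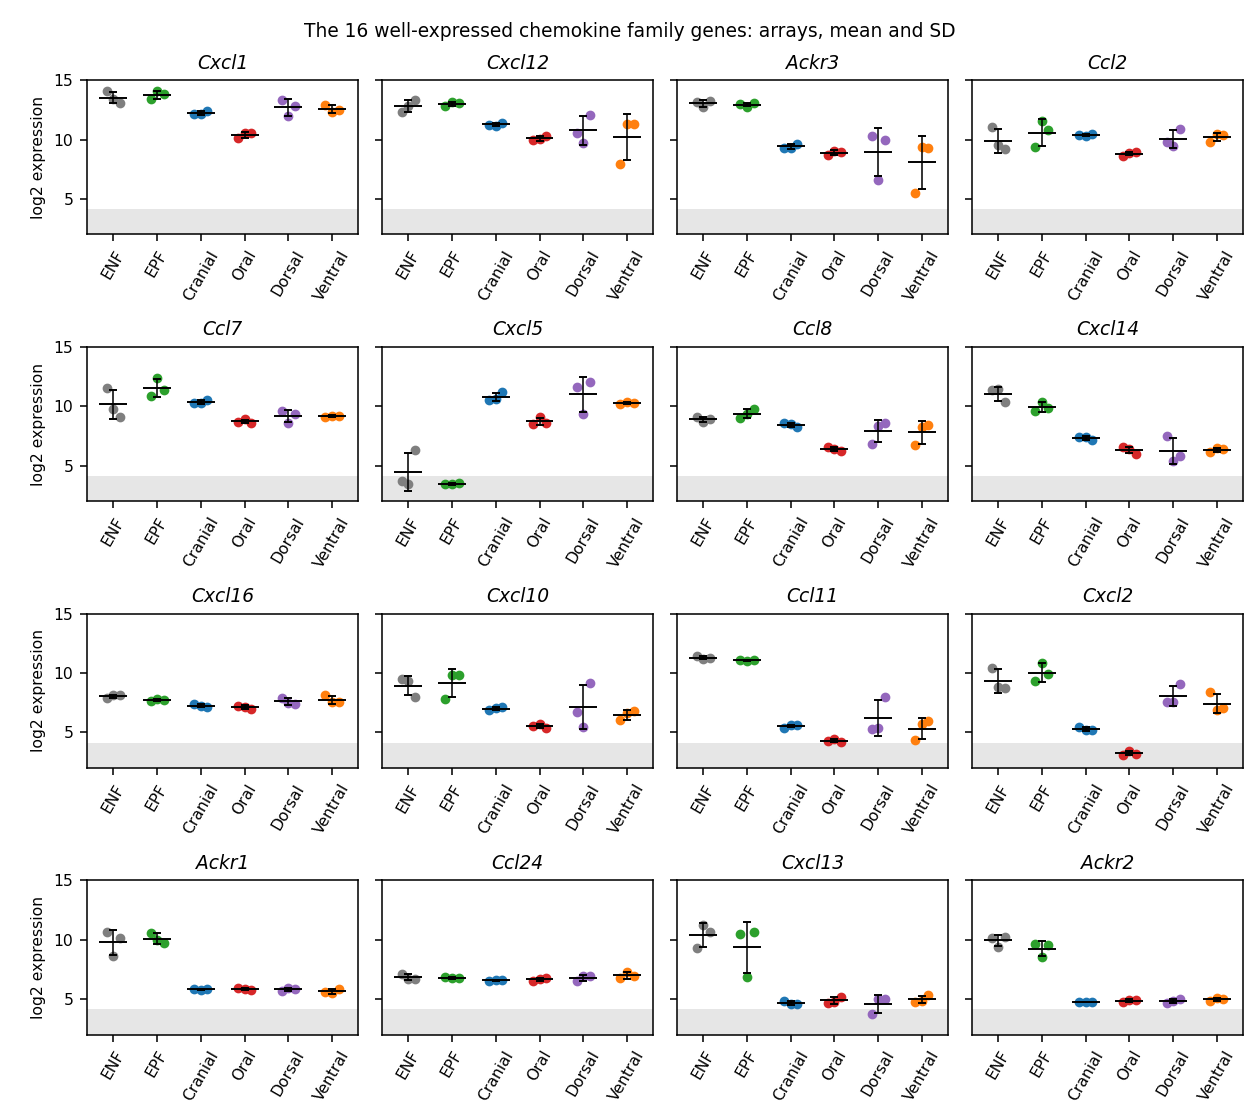
Each panel shows log2 expression of a well-expressed member in the 3 arrays of each group (points), with the mean (line) and SD (bar), and the grey band marks values below the arrays' lower quartile. Ackr1, Ackr2, Ackr3, Ccl8, Ccl11, Cxcl12, Cxcl13 and Cxcl14 are higher in all 6 EPF and ENF arrays than in the 12 site arrays, and Cxcl5 is lower. Cxcl12 is shown by the probe set used, and a second bright one ran the other way.

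Across all 18 arrays, 8 of the 52 members were higher in every EPF and ENF array than in every site array, namely Ackr1, Ackr2, Ackr3, Ccl8, Ccl11, Cxcl12, Cxcl13 and Cxcl14. This order was shown by 8.64% of all genes. Cxcl12 had it by the probe set used, while a second bright probe set was lower in ENF and EPF than in the site groups. Of the 8, Ackr1, Ackr2, Ccl11 and Cxcl13 belong to the well-expressed class only through their EPF and ENF levels, so the share of that class is not read. Cxcl5 was the 1 member below all site arrays, an order shown by 5.05% of all genes. EPF and Dorsal are labelled as the same GFP positive lineage and tissue, but differ in labelled age. The labels give no batch or scan date, so age and any batch cannot be told apart.

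In EPF against Dorsal 3 of 4 atypical receptors and the ligands Ccl11, Cxcl13 and Cxcl14 rose in EPF and Cxcl5 fell. The fourth receptor, Ackr4, was not called (-0.74, limma adjusted p = 0.343). Ackr1 rose by 4.27 ± 0.24 (19.3-fold, limma adjusted p = 1.92e-04), from 5.70, 5.90 and 5.83 in Dorsal. Ackr2 rose by 4.40 ± 0.30 (21.2-fold, 3.78e-04) from 4.70, 4.84 and 5.0 in Dorsal, and its 2 other probe sets were at 5.51 and 5.93 in EPF against 5.50 and 3.98. Over the mean of the 3 the difference was 2.12. Ackr3 rose by 3.99 ± 0.93 (15.9-fold, 0.0309), a call lost without EPF 1, 2 or 3 (adjusted p 0.0983 to 0.112) and without both EPF 2 and Dorsal 1 (4.74, adjusted p = 0.0529). The difference in Ackr3 was 2.81 without Dorsal 2, 4.66 without Dorsal 1 and 5.89 with array weights. Ccl11 rose by 4.87 ± 0.70 (29.3-fold, 0.00550) and Cxcl14 by 3.73 ± 0.53 (13.3-fold, 0.00540). Without Dorsal 3 the Ccl11 difference was 5.77, and that of Cxcl14 was 4.35 without Dorsal 1, 4.45 with array weights and 4.71 over the mean of its probe sets. Cxcl13 rose by 4.79 ± 1.02 (0.0224), lost without EPF 1 or 3 or without Dorsal 2 (adjusted p 0.0593 to 0.0869), and its other probe set was at 11.15 in EPF and 3.95 in Dorsal. The Cxcl13 difference ran from 4.13 without EPF 3 to 6.02 without EPF 2. Cxcl5, bright in Dorsal, was at least 124-fold lower in EPF, where it was near background at 3.47 ± 0.07 against 11.01 ± 1.48 (SD, n = 3, adjusted p = 9.29e-04). That bound was 223-fold without Dorsal 2 and 49.5-fold with array weights. Ackr1, Ackr2, Ccl11, Cxcl14 and Cxcl5 were called in all 15 alternatives.

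Of the inflammatory ligands, Ccl7 rose by 2.38 ± 0.44 (5.21-fold, limma adjusted p = 0.0134), lost without EPF 3 (adjusted p = 0.0544), and Cxcl2 by 1.97 ± 0.53 (0.0490), lost without EPF 1, 2 or 3 or without Dorsal 1 or 2 (adjusted p 0.0647 to 0.146). The Cxcl2 call was also lost after quantile normalization (adjusted p = 0.0672), after median centring (adjusted p = 0.0634) and without both EPF 2 and Dorsal 1 (1.31, adjusted p = 0.178). Cxcl1, Ccl2, Ccl8 and Cxcl10 were not called, at 1.09, 0.56, 1.49 and 2.02. Ccl27a, a skin-homing ligand of Ccr10, was at 6.98, 6.65 and 6.14 in EPF against 5.82, 4.61 and 5.24 in Dorsal and rose by 1.36 ± 0.36 (0.0448), lost without EPF 1, 2 or 3 or without Dorsal 2 or 3 (adjusted p 0.0704 to 0.147). It was also lost after quantile normalization (adjusted p = 0.0598) and after median centring (adjusted p = 0.0660). Ccl25 was at 4.98, 5.62 and 5.21 in EPF and fell by 0.93 (0.0480), lost without EPF 1, 2 or 3 or without Dorsal 1 or 2 (adjusted p 0.0569 to 0.155) or by the mean over probe sets (-0.46, adjusted p = 0.0678). In all 10 members rose and 2 fell of 52 (23.1%, against 16.8% of all genes, 10.9% higher and 5.94% lower). Cxcl12 is among the 10 by the probe set used. The median over all 52 was 0.07, against 0.01 over all genes. Without EPF 1, EPF 2, EPF 3 or Dorsal 2 the count was 6, 7, 5 or 7. Over the same comparison 22 of 27 immediate early and stress genes rose (median 3.00), and their mean level per array was 11.96 to 12.13 in EPF and 8.86 to 9.71 in Dorsal. Of the leukocyte markers 4 of 27 rose (Csf1r by 2.62, H2-Aa by 1.35, Cd14 by 1.27 and H2-Ab1 by 0.98), against 10.9% of all genes. Fibroblast markers had 6 of 12 higher (median 0.95, mean level per array 13.37 to 13.45 in EPF and 11.54 to 12.26 in Dorsal) and mural markers 6 of 11 higher and 2 lower (median 1.22). Keratinocyte markers had 2 of 13 higher (median 1.05) and endothelial markers 2 of 14 (median 0.10, 5.62 to 5.91 in EPF and 4.88 to 5.11 in Dorsal). Their part in the result was not tested.

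**Figure D4:**
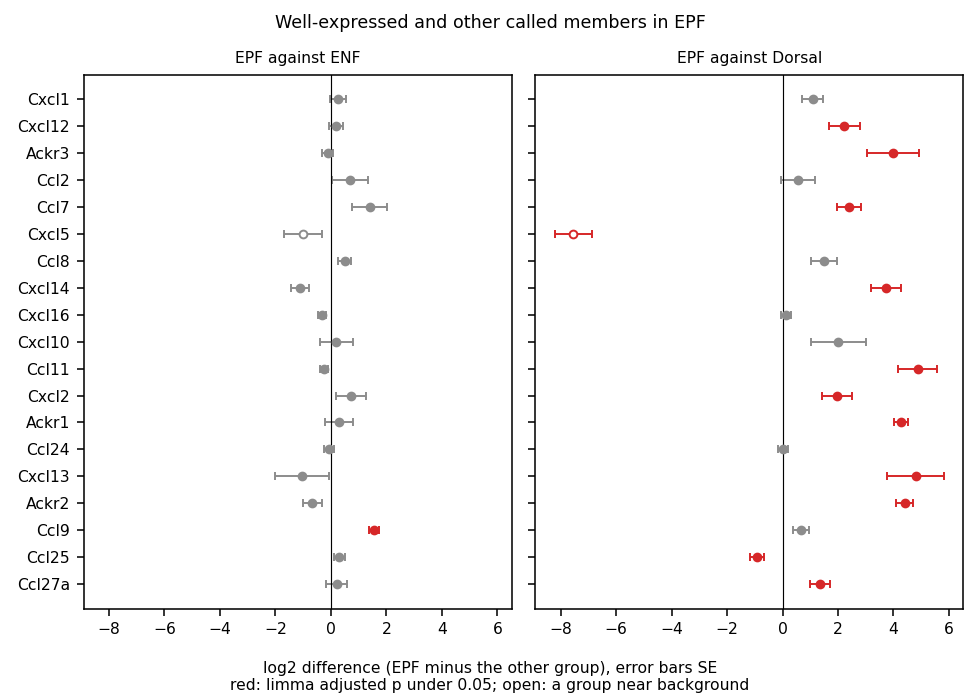
Points show log2 differences (EPF minus the other group) with SE for the 16 well-expressed members and for Ccl9, Ccl25 and Ccl27a, red where limma called the gene and open where a group was near background. Against ENF, Ccl9 alone is red, and against Dorsal 10 members are red on the right and Cxcl5 and Ccl25 on the left.

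Cxcl12 depended on the probe set. The one used was at 12.84 in ENF and 13.02 in EPF against 10.10 to 11.27 in the site groups, and it rose in EPF against Dorsal by 2.23 ± 0.57 (4.70-fold, limma adjusted p = 0.0407). The second was lower in ENF and EPF, at 7.35 and 7.71, than in the site groups, at 9.33 to 10.35, and the third was at 4.70 to 5.12. Over the mean of the 3 the difference was 0.10 (adjusted p = 0.872). With the probe set used, the call was lost without EPF 1, 2 or 3 or without Dorsal 1 or 2 (adjusted p 0.0652 to 0.134). It was lost too after quantile normalization, after median centring and without both EPF 2 and Dorsal 1 (adjusted p 0.0525 to 0.164), while the difference was 2.90 without Dorsal 3 and 3.06 with array weights. No direction is therefore given for the gene as a whole.

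**Figure D5:**
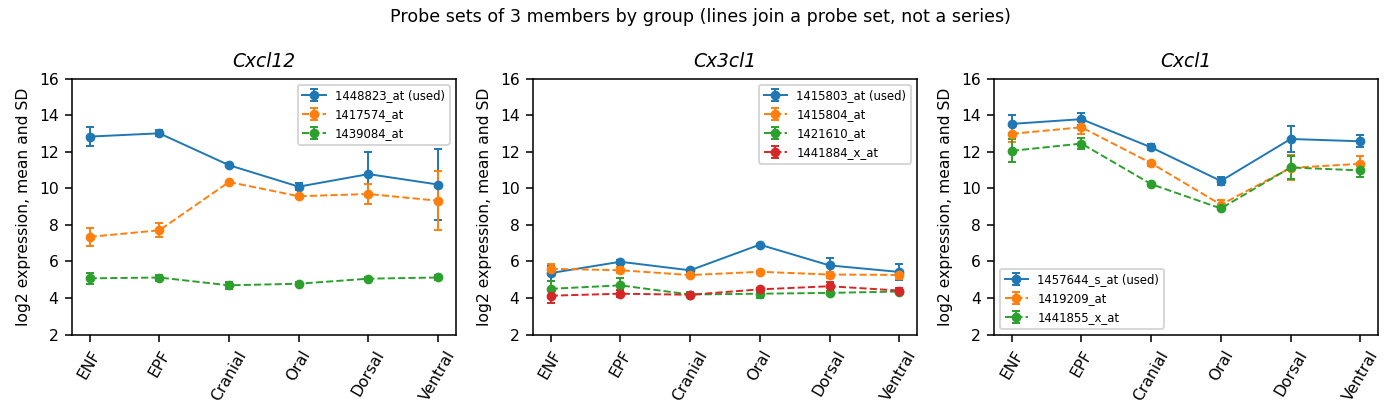
Lines join the group means (with SD) of each probe set of Cxcl12, Cx3cl1 and Cxcl1, solid for the one used. The 2 bright Cxcl12 probe sets move in opposite directions between EPF with ENF and the sites, 1 of 4 Cx3cl1 probe sets is raised in Oral, and all 3 Cxcl1 probe sets are lowest there.

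Other genes of the pathway were counted from lists, beside the shares of all genes that rose and fell. Those were 10.9% and 5.94% in EPF against Dorsal, 10.5% and 6.30% in Oral against Dorsal, 11.2% and 7.45% in Cranial against Dorsal, 10.3% and 4.31% in Oral against Ventral, 11.7% and 6.20% in Cranial against Ventral, 0.407% and 0.731% in Oral against Cranial, and 0.275% and 0.0330% in EPF against ENF. Of 16 genes of the NF-kB pathway, which induces many inflammatory chemokines, 5 rose (31.2%) and 0 fell in EPF against Dorsal (median 0.67), led by Tnfaip3, a feedback inhibitor, at 4.14. Oral against Dorsal gave 3 and 3 (18.8% each), with Tnfaip3 at -1.97, Nfkbie at 1.02 and Birc3 at -0.94. Cranial against Dorsal gave 2 and 1, led by Nfkbie at 1.26, Cranial against Ventral 1 and 0, Nfkbie at 0.96, and Oral against Ventral 0 and 1, Birc3 at -0.78. Oral against Cranial, EPF against ENF and Ventral against Dorsal gave 0 calls in limma, with 4, 4 and 2 genes at an unadjusted p under 0.05. Of 27 inflammatory cytokine and receptor genes 11 rose (40.7%) and 1 fell (3.70%) in EPF against Dorsal, Il6 by 5.08, Il33 by 4.06 and Tlr4 by 4.06. In Oral against Dorsal 1 rose (3.70%) and 5 fell (18.5%), with Il17ra at -1.99, Tlr4 at 1.75 and Ifngr2 at -1.68, and in Cranial against Dorsal 2 and 5 (7.41% and 18.5%), in Cranial against Ventral 3 and 6 (11.1% and 22.2%) and in Oral against Ventral 1 and 3 (3.70% and 11.1%). Of 27 immediate early and stress genes 15 rose (55.6%) and 1 fell in Cranial against Dorsal and against Ventral, and 13 rose (48.1%) and 1 fell in Oral against each. Zfp36, whose product destabilizes cytokine and chemokine transcripts, rose in Oral against Dorsal by 1.74 and in EPF against Dorsal by 5.08, and Oral against Cranial gave 0 calls in this list (limma, 1 at an unadjusted p under 0.05, median -0.11). Their part in the chemokine differences between sites was not tested.

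Among 18 genes of receptor signalling, Rgs2, which shortens G protein signals, was lower in Oral (-2.56 against Dorsal and -2.31 against Ventral) and higher in EPF than in ENF by 2.44, the 1 call there. The counts were 4 rising and 2 falling in Oral against Dorsal and in Cranial against Dorsal (22.2% and 11.1%), 1 and 2 in Oral against Ventral (5.56% and 11.1%), 2 and 3 in Cranial against Ventral (11.1% and 16.7%) and 3 and 1 in EPF against Dorsal (16.7% and 5.56%). Oral against Cranial had 1 lower, Ptk2b at -1.06. Of 14 genes that trim chemokines or hold them on the cell surface, 4 rose (28.6%) and 1 fell (7.14%) in EPF against Dorsal, with Dpp4, a protease that cleaves Cxcl12, at 6.57, Hs6st1, a heparan sulfate sulfotransferase, at -2.13 and Mmp2 at 1.71. Sdc3, a heparan sulfate proteoglycan, rose in Oral against Dorsal by 1.02 and was the 1 call of the list there, as it was in Cranial against Dorsal (0.71) and Oral against Ventral (0.67), while in Cranial against Ventral that call was Sdc2 (0.95). Of 9 related genes outside the naming rule 2 rose (22.2%) and 1 fell (11.1%) in EPF against Dorsal, Rarres2, the attractant chemerin, at 4.61, its receptor Cmklr1 at 1.00 and Mif at -1.58. Pf4 was at -0.71 in Oral against Dorsal and Cmklr1 at -0.89 in Cranial against Dorsal, each the 1 call of that list. In Cranial against Ventral it was Xcr1, near background in Cranial. In EPF against ENF the immediate early list had 1 call, Nr4a3 at 1.38. Of these 6 pathway lists, those given no count in a comparison had 0 calls in limma there, with 1 to 7 genes at an unadjusted p under 0.05.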

How the data were processed

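Expression was measured with Affymetrix whole-genome mouse arrays. The authors deposited log2 values, 1 column per array, made in R by RMA and quantile normalization, according to the design text and, for RMA, per the submitters' processing notes. No software version is given in the sources used here, nor whether all arrays were normalized together. Of 45101 probe sets, 64 controls were set aside, 34945 carried 1 symbol and 932 several, and only single-symbol probe sets named genes. All 52 members matched the RefSeq gene table by Entrez identifier, with 52 symbols unchanged. Groups and replicate numbers came from the sample titles.

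Differences were tested with limma 3.58.1 (lmFit, eBayes) in R 4.3.3 on the log2 values, with no filter on dim genes and with Benjamini-Hochberg adjustment over 18193 genes, called at an adjusted p under 0.05. EPF with ENF and EPF with Dorsal were fitted on their 6 arrays, and the sites on their 12 arrays together. The steps were tested on simulated data. At a true log2 difference of 1, they called 22 of 50 changed genes in EPF against ENF and 38 of 50 in Oral against Cranial. At a difference of 2 they called 45 and 47 of 50. A member that was not called may therefore still differ. The number of arrays limits the precision. Each well-expressed member and each member called in any comparison is given by array. From each pathway list up to 3 called genes with the largest difference are named. Csf1r, H2-Aa, Cd14, H2-Ab1, Ptprc, Pecam1, Tek, Zfp36 and Xist were named after their values were seen. The members, lists and rule were chosen with earlier results of these data known. Same-numbered arrays did not deviate together in every pair. Tables were made in pandas 2.3.3 and numpy 2.4.6 under Python 3.11.15, and plots in matplotlib 3.10.9. Alternatives covered normalization, centring, the filter, the probe set rule, the prior, weights, the replicate block, the arrays fitted and single arrays left out.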

Additional observations from a re-analysis of the deposited data

How the results depend on the processing

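None of the members called as reported changed direction under any alternative. The counts of called members moved as follows. Weighting the arrays gave 13 in Oral against Cranial (4 as reported), 7 in Ventral against Dorsal (0), 30 in Cranial against Dorsal (4), 26 in Oral against Dorsal (5), 20 in Oral against Ventral (6) and 21 in Cranial against Ventral (4). Fitting only the 6 arrays compared gave 15, 1, 3, 10 and 14 for the same comparisons without Ventral against Dorsal, in that order. Quantile normalization gave 8, 8, 10 and 7 and median centring 18, 18, 12 and 19 for Cranial against Dorsal, Oral against Dorsal, Oral against Ventral and Cranial against Ventral. For EPF against ENF (1) the mean over probe sets gave 0, all 18 arrays 3, and leaving out both arrays low in Xist, chosen after seeing the data, 0. EPF against Dorsal (12) gave 9 without EPF 2 and Dorsal 1, also chosen after seeing the data. Calls over all 18193 genes moved too. Oral against Cranial had 207 as reported, 1926 with array weights and 1795 with only the 6 arrays compared. EPF against ENF had 56 as reported and 40 by the mean over probe sets. With all 18 arrays it had 460, and without both arrays low in Xist 4. The counts of members are therefore not read as shifts particular to them. The cause of these shifts was not tested.

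The replicate number as a block gave 0 members in EPF against ENF (Ccl9 at an adjusted p of 0.0801) and 9 in Oral against Dorsal, with 4, 0, 4, 6, 4 and 10 in Oral against Cranial, Ventral against Dorsal, Cranial against Dorsal, Oral against Ventral, Cranial against Ventral and EPF against Dorsal. Over all genes the block gave 21 calls in EPF against ENF and 170 in Oral against Cranial. With the block, Ccr2 in Cranial against Ventral and Ccl25, Cxcl2 and Cxcl12 in EPF against Dorsal were not called. Deviations of same-numbered arrays correlated at -0.38 to 0.30, so the numbers were not taken to pair the arrays. Other pairings were not checked. The labels do not say whether ENF and EPF cells came from the same animals, and they were tested as separate samples.

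Leaving out 1 array at a time gave 0 to 1 members in EPF against ENF, 1 to 3 in Oral against Cranial, 0 to 1 in Ventral against Dorsal, 2 to 7 in Cranial against Dorsal, 3 to 12 in Oral against Dorsal, 4 to 6 in Oral against Ventral, 2 to 5 in Cranial against Ventral and 5 to 14 in EPF against Dorsal. Calls over all genes moved as well, to 4 without EPF 2 and 130 without ENF 3 in EPF against ENF. Without Dorsal 1 the count of members was 7 in Cranial against Dorsal and 12 in Oral against Dorsal. Dorsal had the widest spread among members (median SD 0.34, against 0.12 in Cranial). A member with a group near background carries no usable fold in that comparison, beyond the bounds given.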

Other observations

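Chemokine genes with near-identical copies were read by probe sets that carry several symbols, and they belong to none of the counts above. A probe set shared by Ccl19, a homeostatic ligand of Ccr7, and its copies was at 7.61 ± 0.83 in ENF and 9.20 ± 0.51 in EPF (SD, n = 3) and at 4.85 to 5.40 in the site groups. A probe set shared by Ccl27a, Ccl27b and their copies was at 10.45 ± 1.38 in ENF and 8.73 ± 1.41 in EPF and at 6.63 to 6.95 in the site groups, and a second one at 7.11 and 7.19 against 6.13 to 6.39. Keratinocytes are a known source of Ccl27a, and keratinocyte markers were higher in ENF arrays (7.28 to 9.30) than in site arrays (4.78 to 5.16), although their part in these values was not tested. A probe set shared by the Ccl21 genes was at 4.64 to 4.95 in all 6 groups. These probe sets were not tested.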
